A study of Drosophila melanogaster with 17 samples.

Results

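ISWI is the ATPase subunit shared by several nucleosome remodelling complexes of Drosophila, among them ACF, CHRAC and NURF. In purified systems such complexes slide histone octamers along DNA, and some of them set even distances between neighbouring nucleosomes. Loss of ISWI in flies is known for the altered shape of polytene chromosomes, above all of the male X. Micrococcal nuclease (MNase) cuts linker DNA between nucleosomes and so reads out where nucleosomes lie. The question here was how regularly nucleosomes were spaced in BG3-c2 cells, a Drosophila line taken from larval central nervous tissue at the third instar, after double-stranded RNA (dsRNA) against ISWI.

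The compared libraries are the 4 paired-end Illumina libraries of gel-purified tetranucleosomal DNA from dsRNA-treated BG3-c2 cells, out of 17 libraries in the series. The ISWI group holds 2 libraries from cells that were given 50 µg of ISWI dsRNA and were harvested after 6 days. The control group holds 2 libraries from cells given control dsRNA against glutathione S-transferase (GST). The labels' protocols give the dsRNA amount and the harvest time for the ISWI knockdown only. All cells grew at 26°C and all nuclei were digested for 20 min at 37°C. Knockdown efficiency and the enzyme amount used for these 4 libraries were not analysed here, since the tables hold genome intervals only. No label says whether replicates were separate cultures, so the tests measure the spread between libraries, which may be technical.

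Distinct intervals on the arms 2L, 2R, 3L and 3R and on chromosomes 4 and X were used. Of these, 5261056 and 1003420 came from ISWI replicates 1 and 2, and 8520611 and 1470531 from GST replicates 1 and 2. The arms held 44.0% and 14.7% of all listed intervals in the ISWI libraries and 46.6% and 17.0% in the GST libraries. The unplaced sequence Uextra held 45.2% and 76.9% in the ISWI libraries and 42.8% and 74.7% in the GST libraries. Replicates 2 were thus the shallow ones in both groups, and differences within replicate 1 and within replicate 2 are given beside the pooled ones. Although a tetranucleosomal band had been cut, 29.9% and 34.4% of distinct intervals were no longer than 250 bp in the ISWI libraries and 30.5% and 38.1% in the GST libraries. Fragments of 500 to 1000 bp made up 50.3% and 51.1% in the ISWI libraries and 49.2% and 40.3% in the GST libraries. The libraries therefore held both short and tetranucleosomal fragments, which were read out separately.

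Spacing was read from pair densities, the number of pairs of fragment positions at each distance from 150 to 1200 bp per pair of usable genome positions. Where nucleosomes form regular arrays, this density has maxima at multiples of the repeat length. The phasing value is the coefficient of a cosine of period 180 bp, fitted together with a smooth polynomial trend of degree 6, in percent of the mean pair density. This trend was chosen after the densities were seen. Results over the quadratic trend chosen first are given beside it where they differ. Over the quadratic trend the value is the amplitude of a cosine and sine at 180 bp, which has no sign. The measure thus changes together with the trend. The phasing value is positive when pairs are in excess at multiples of 180 bp and near 0 when they are not. Errors given for single libraries are counting errors that treat pairs as independent, and so are lower limits.

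Nucleosome phasing was weaker after ISWI dsRNA in short fragments. It was read first from midpoints of fragments up to 250 bp, a class that also holds fragments shorter or longer than a nucleosome core. Their phasing value was 0.120% (counting error 0.0336) and 0.348% (0.154) in ISWI replicates 1 and 2, against 1.14% (0.0203) and 1.07% (0.0940) in GST replicates 1 and 2. Both ISWI libraries lay below both GST libraries, and the shallow replicates sided with the deep ones of their group. The means were 0.234 ± 0.162% in ISWI libraries and 1.102 ± 0.0498% in GST libraries (SD, n = 2 each). The difference of -0.868 percentage points exceeded the spread between replicates. It was -1.02 percentage points within replicate 1 and -0.718 within replicate 2. The exact two-sided permutation p was 0.333, the smallest that 2 libraries against 2 can give. This lower limit holds for every single-value comparison below, and where the groups overlapped the p was larger.

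Restricting the fragments to 120 to 180 bp, about the length of a nucleosome core, widened the gap. Phasing of midpoints was then 0.253% (0.0811) and -0.112% (0.360) in ISWI libraries, against 1.90% (0.0478) and 1.18% (0.215) in GST libraries. ISWI replicate 2 was not distinguishable from 0 at this depth. The left and right ends of these core fragments gave the same order. Left ends gave 0.178% and 0.123% in ISWI libraries, against 1.79% and 1.24% in GST libraries. Right ends gave 0.218% and -0.271% in ISWI libraries, against 1.76% and 0.722% in GST libraries.

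**Figure D1:**
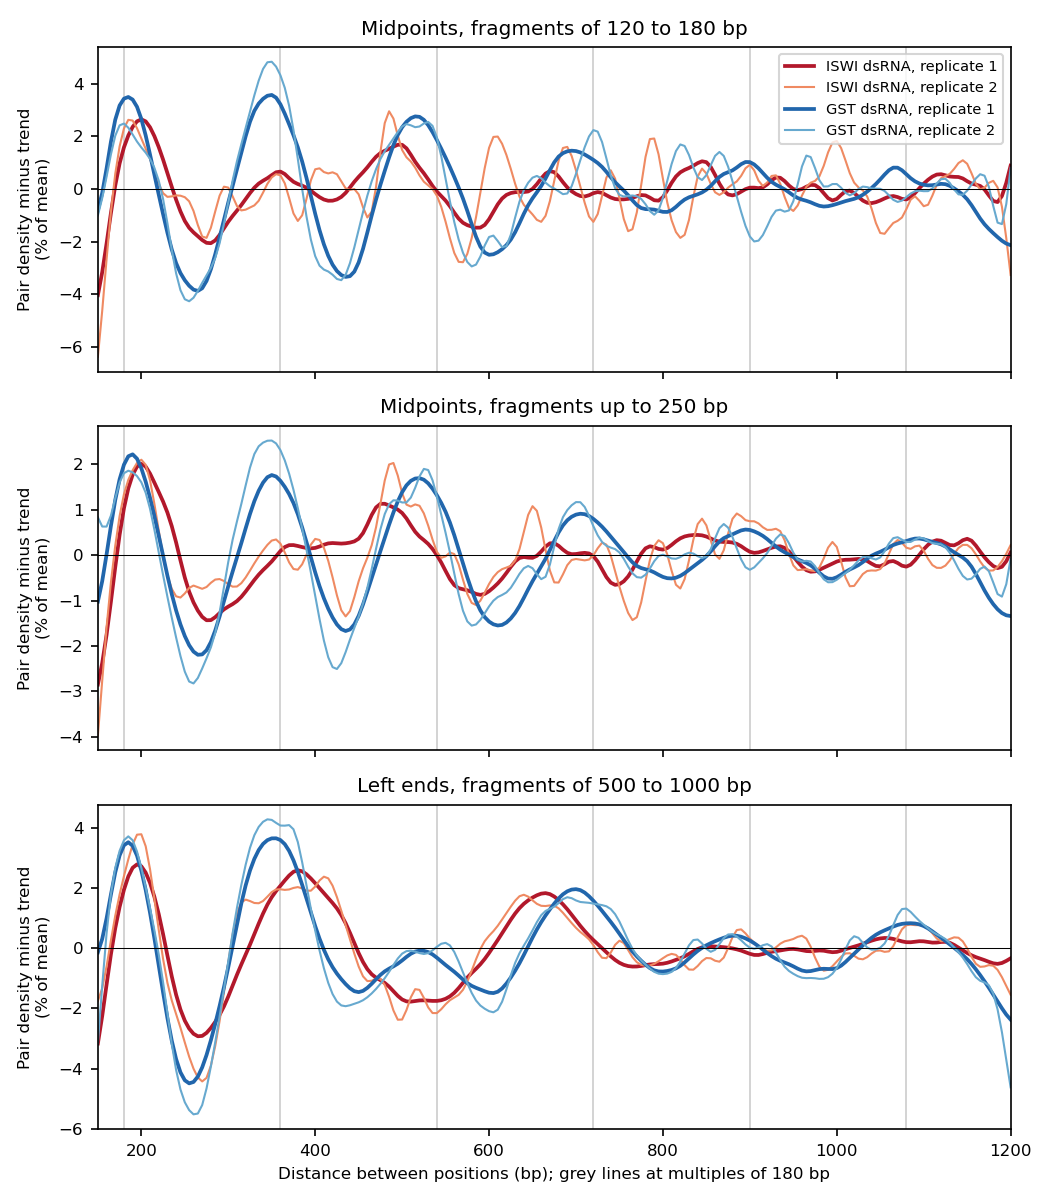
Pair density minus the smooth trend, in percent of the mean, by distance between positions in bp, for midpoints of fragments of 120 to 180 bp (top), midpoints of fragments up to 250 bp (middle) and left ends of fragments of 500 to 1000 bp (bottom), smoothed with a Gaussian of SD 10 bp. Each line is 1 library (thick, replicate 1; thin, replicate 2). Maxima near multiples of 180 bp are flatter and displaced in ISWI libraries in red, against repeated maxima in GST libraries in blue.

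The lower phasing could be followed nucleosome by nucleosome. For each nucleosome number, the mean density within 20 bp of that multiple of 180 bp was set against the troughs on both sides. For midpoints of fragments of 120 to 180 bp, the second nucleosome stood out by 1.05% and 1.85% in ISWI libraries, against 6.14% and 7.11% in GST libraries. At the third nucleosome the contrast was -0.174% and -0.316% in ISWI libraries, against 3.88% and 3.34% in GST libraries. At the fourth it was -0.218% and 0.183% in ISWI libraries, against 2.20% and 2.38% in GST libraries. At multiples of 180 bp an array thus stayed visible to the fourth nucleosome in both GST libraries. In ISWI libraries little contrast was left there beyond the second. These contrasts are read only near multiples of 180 bp, so a weaker array and one of another repeat length cannot be told apart. At the fifth nucleosome the groups overlapped, because GST replicate 2 fell to -2.18% while GST replicate 1 held 1.70%.

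In fragments up to 250 bp the contrasts were smaller and ordered alike. The second nucleosome gave 0.470% and 1.01% in ISWI libraries, against 3.33% and 4.12% in GST libraries. The third gave -0.239% and 0.609% in ISWI libraries, against 2.60% and 2.40% in GST libraries. The fourth gave -0.125% and 0.114% in ISWI libraries, against 1.66% and 0.890% in GST libraries. Of the maxima of nucleosomes 2 to 5, 3 of 4 fell on a search limit in ISWI replicate 1 and 1 did in ISWI replicate 2, so no spacing is given for these libraries. In GST replicate 1 the maxima lay at 351, 519, 706 and 896 bp. In GST replicate 2 they lay at 347, 526, 701 and 870 bp.

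Core-length fragments of ISWI replicate 1 did keep weak maxima inside the search ranges. They lay at 358, 495, 671 and 844 bp for midpoints, whereas those of GST replicate 1 lay at 348, 516, 696 and 897 bp. The line through nucleosomes 2 to 5 had a slope of 163.4 bp in ISWI replicate 1 and 182.7 bp in GST replicate 1. In the shallow replicates the slope was 167.5 bp in ISWI replicate 2 and 174.7 bp in GST replicate 2. The ISWI values were lower in both pairs, but the maxima of ISWI replicate 2, at 408, 487, 689 and 899 bp, were unevenly spaced.

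The same measure was taken over all ends and fragment classes. Of 9 combinations of 3 positions and 3 classes, 8 had both ISWI libraries below both GST libraries over the degree 6 trend. Amplitudes over the quadratic trend chosen first had this order in 5 of 9. The 3 positions come from the same fragments, so the 9 combinations are not independent. Left ends of fragments up to 250 bp gave 0.159% and 0.423% in ISWI libraries, against 0.809% and 0.714% in GST libraries. Right ends of these fragments gave 0.181% and 0.251% in ISWI libraries, against 0.828% and 0.592% in GST libraries. The ends of short fragments carried less phasing than their midpoints in both GST libraries.

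Fragments over 250 to 450 bp, which span a pair of nucleosomes, differed least in proportion, with an ISWI mean of 0.559 times the GST mean for left ends, against 0.382 times in fragments up to 250 bp. Left ends gave 0.571% (0.0643) and 0.794% (0.500) in ISWI libraries, against 0.987% (0.0378) and 1.45% (0.214) in GST libraries. Midpoints gave 0.444% and 0.557% in ISWI libraries, against 0.969% and 1.59% in GST libraries. The right ends gave 0.642% and 0.606% in ISWI libraries, against 1.05% and 1.43% in GST libraries. ISWI replicate 2 was the shallowest library in this class, with counting errors of 0.501 for right ends and 0.504 for midpoints. For all 3 positions its counting error exceeded its distance from GST replicate 1.

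Tetranucleosomal fragments of 500 to 1000 bp carried the strongest phasing of the ends in GST libraries among the 3 classes. Left ends gave 0.463% (0.0213) and 0.650% (0.118) in ISWI libraries, against 1.58% (0.0132) and 1.87% (0.0975) in GST libraries. The means were 0.556 ± 0.132% in ISWI libraries and 1.72 ± 0.203% in GST libraries (SD, n = 2 each). The difference was -1.17 percentage points, with -1.12 within replicate 1 and -1.22 within replicate 2. Right ends gave 0.421% and 0.590% in ISWI libraries, against 1.51% and 1.72% in GST libraries. Both ends of the long fragments thus separated the groups by more than the replicate spread over this trend. Over the quadratic trend chosen first, the groups overlapped for both ends. Right ends then gave 2.16% and 4.16% in ISWI libraries, against 2.82% and 4.37% in GST libraries, and left ends are given with that trend further on.

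Midpoints of tetranucleosomal fragments were the exception. They gave 0.198% and 0.127% in ISWI libraries, against 0.805% and 0.178% in GST libraries, so that the groups overlapped. GST replicate 2 accounted for the overlap, and the difference within replicate 2 was -0.0506 percentage points. Over the quadratic trend these midpoints gave 1.46% and 2.30% in ISWI libraries, against 1.75% and 1.71% in GST libraries. The groups overlapped there too, and the ISWI mean was the higher one.

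**Figure D2:**
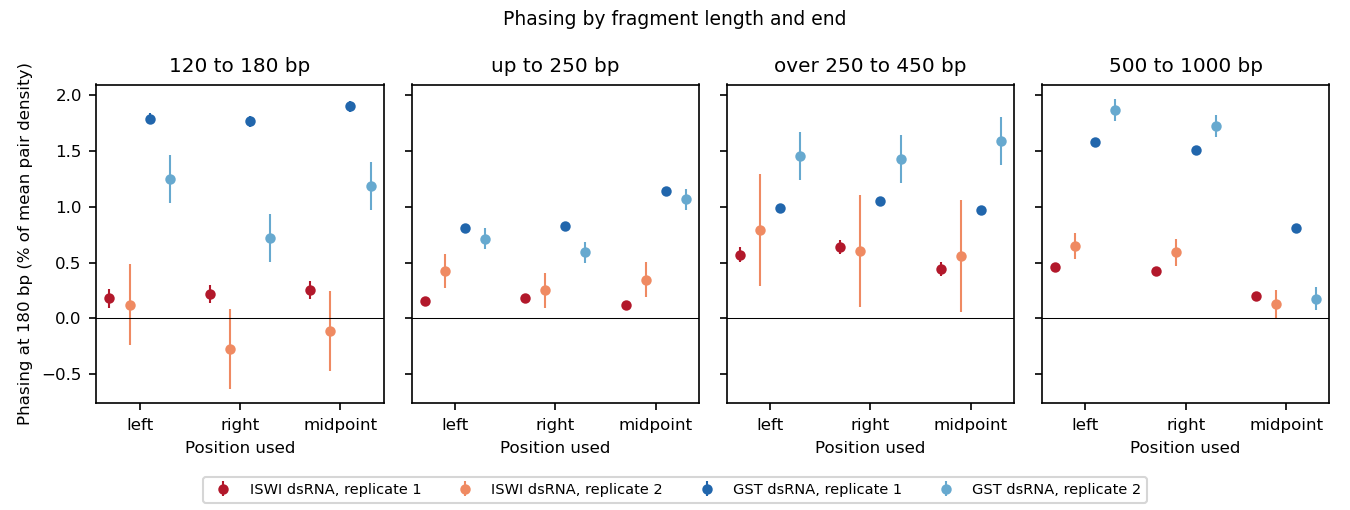
Phasing value at 180 bp, in percent of the mean pair density, for left ends, right ends and midpoints in 4 fragment length ranges. Each point is 1 library and bars are counting errors; ISWI libraries in red stand left of GST libraries in blue, and only midpoints of 500 to 1000 bp fragments overlap among the 3 main classes.

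In long fragments the fourth maximum of the residual density lay above the mode of fragment length. Its search began at 660 bp, so a maximum at the mode of the ISWI libraries could not be found. For left ends of 500 to 1000 bp fragments the fourth maximum lay at 664 and 660 bp in ISWI libraries, the second of these on the limit of its search range, against 699 and 692 bp in GST libraries. The mode of fragment length in this class was 632 and 631 bp in ISWI libraries, against 663 and 667 bp in GST libraries. Since the ISWI maxima lay at or near the search limit, they cannot show whether the maximum moved with the length of the cut band. The part of that length in the difference at the fourth nucleosome was not tested. At the second nucleosome, well below the fragment length, the contrast of left ends was 3.54% and 4.24% in ISWI libraries, against 6.12% and 7.86% in GST libraries. That difference of -3.10 percentage points was -2.58 within replicate 1 and -3.62 within replicate 2.

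The period of the arrays was scanned from 150 to 250 bp. Over the degree 6 trend, midpoints of fragments up to 250 bp had their largest amplitude at 153 and 150 bp in ISWI libraries, at or near the edge of the scan, against 181 and 182 bp in GST libraries. Left ends of 500 to 1000 bp fragments had theirs at 250 bp, the other edge, in both ISWI libraries, against 180 bp in both GST libraries. For midpoints of 120 to 180 bp fragments the largest amplitude lay at 154 and 249 bp in ISWI libraries. In GST libraries it lay at 181 and 163 bp, so the GST replicates did not share a period in this class. The amplitude of GST replicate 2 was 2.11% at 163 bp, against 1.60% at 180 bp. An array period after ISWI dsRNA could therefore not be read from the scan.

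Amplitudes at each library's own best period did not all keep this order. For midpoints of fragments up to 250 bp they were 0.522% and 0.505% in ISWI libraries, against 1.17% and 1.20% in GST libraries. Left ends of long fragments gave 1.34% and 1.52% in ISWI libraries, against 1.64% and 1.94% in GST libraries. Midpoints of long fragments had the opposite order, with 1.57% and 1.64% in ISWI libraries, against 0.906% and 0.454% in GST libraries. Right ends over 250 to 450 bp overlapped, with 0.778% and 1.645% in ISWI libraries, against 1.105% and 1.566% in GST libraries. For left ends of long fragments the cosine coefficient was also fitted at other periods. It has a sign and is not the amplitude at those periods. At 190 bp it was 0.446% and 0.680% in ISWI libraries, against 0.519% and 0.676% in GST libraries, and the groups overlapped. At 170 bp it was 0.351% and 0.282% in ISWI libraries, against 1.18% and 1.43% in GST libraries, without overlap. In this coefficient the groups were thus apart at 170 and 180 bp and overlapped at 190 bp, which does not compare array amplitudes.

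**Figure D3:**
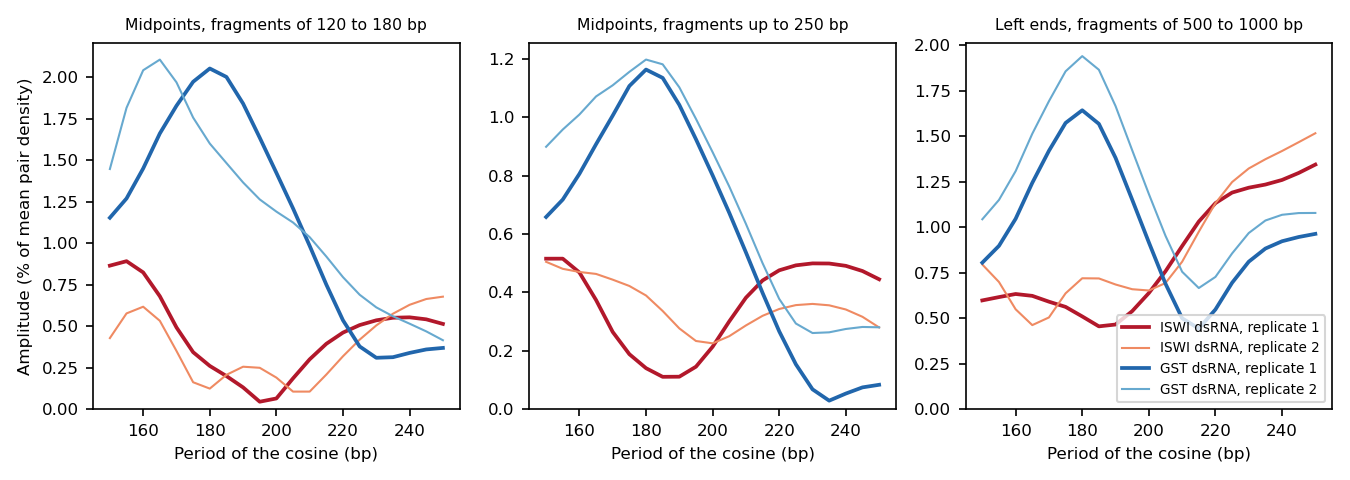
Amplitude of the fitted cosine and sine, in percent of the mean pair density, by period from 150 to 250 bp, for the positions and lengths named above each panel. Lines are single libraries. In the middle and right panels ISWI libraries (red) are low near 180 bp, where GST libraries (blue) peak at 180 to 182 bp. For the left panel the best periods were 181 and 163 bp in GST libraries, and 154 and 249 bp in ISWI libraries.

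A quadratic trend was the design chosen first, and how well it described the pair densities was not tested. The density ratios given next take in distances near 50 bp, outside the fitted range of 150 to 1200 bp, so they cannot decide this. The density of left ends of 500 to 1000 bp fragments around a distance of 50 bp was 2.47 and 3.74 times that around 1000 bp in ISWI libraries, against 2.20 and 3.17 times in GST libraries. In the low, medium and high MNase digests of BG3-c2 cells the ratio was 1.34, 1.40 and 1.43. Over a quadratic trend, the best period of these left ends was 217 and 218 bp in ISWI libraries, against 179 bp in both GST libraries. Amplitudes at 180 bp over that trend were 2.16% and 3.79% in ISWI libraries, against 2.87% and 4.25% in GST libraries, and the groups overlapped. For midpoints of fragments up to 250 bp they were 0.350% and 0.802% in ISWI libraries, against 1.38% and 1.47% in GST libraries, without overlap.

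Repeat lengths from stepwise maxima, also chosen first, could not be compared. For midpoints of fragments up to 250 bp, 2 and 3 of the 5 maxima lay on a search limit in ISWI libraries, so their slopes of 207.7 and 168.4 bp do not measure a spacing. In GST libraries the slopes were 178.7 and 173.2 bp, with no maximum on a limit. For left ends of long fragments 3 of 5 maxima lay on a limit in each ISWI library, and GST libraries gave 177.5 and 180.3 bp.

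Untreated BG3-c2 chromatin from the MNase titration offered a further setting, with 1 library per digest and therefore no test. Thinned to the depth of GST replicate 1, midpoints of fragments up to 250 bp gave phasing values of 0.534%, 0.702% and 0.696% at low, medium and high MNase. Midpoints of 120 to 180 bp fragments gave 1.16%, 1.30% and 1.44% from low to high digest. Left ends of 500 to 1000 bp fragments gave 1.43%, 1.11% and 1.25%. These values lay above both ISWI libraries, and those of short fragments up to 250 bp and of the left ends lay below both GST libraries. Other ends and classes did not all lie above the ISWI libraries. Left ends of fragments up to 250 bp gave 0.301%, 0.440% and 0.416% from low to high digest, of which the first and last lay below ISWI replicate 2. Left ends over 250 to 450 bp gave 0.488%, 0.603% and 0.692%, the first below both ISWI libraries and the others between them. Right ends over 250 to 450 bp gave 0.497%, 0.526% and 0.694%, the first and second below both ISWI libraries. Core-length values lay between those of GST replicates 2 and 1 in the medium and high digests.

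Phasing was then compared arm by arm. For midpoints of fragments up to 250 bp, ISWI replicate 1 gave 0.127% on 2L, -0.0127% on 2R, 0.269% on 3L, 0.0579% on 3R and 0.242% on X. GST replicate 1 gave 1.17% on 2L, 1.07% on 2R, 1.19% on 3L, 1.23% on 3R and 0.886% on X. The phasing of GST replicate 1 was lowest on X among these arms, with a counting error of 0.0613. In replicate 2 the X gave -0.494% (0.451) after ISWI dsRNA, against 0.321% (0.279) after GST dsRNA. Over the autosomal arms, ISWI replicate 2 ranged from 0.153% on 3R to 0.749% on 3L, against 1.01% on 3L to 1.49% on 2L in GST replicate 2. Both ISWI libraries lay below both GST libraries on all 5 arms.

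Left ends of 500 to 1000 bp fragments separated the groups on all 5 arms as well over the degree 6 trend. They ranged from 0.360% to 0.551% over arms in ISWI replicate 1 and from 0.197% to 1.097% in ISWI replicate 2. In GST replicate 1 they ranged from 1.20% to 1.76%, and in GST replicate 2 from 1.29% to 2.51%. Over the quadratic trend chosen first, the groups overlapped on all 5 arms. ISWI replicate 2 then gave 3.79% on 2L, 4.08% on 2R, 3.79% on 3L, 4.03% on 3R and 3.02% on X. GST replicate 1 was lower there, with 2.72%, 2.90%, 2.89%, 3.16% and 2.41% on the same arms. Over the degree 6 trend, 45 combinations of arm, position and class were counted. The ISWI value was lower in 45 within replicate 1 and in 37 within replicate 2. Both ISWI libraries lay below both GST libraries in 34 of the 45. The 3 positions come from the same fragments of the same libraries, so these combinations are not independent.

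Chromosome 4, the small arm rich in repeats, held too few fragments for a reading. Midpoints of fragments up to 250 bp gave -0.723% (0.421) and -2.02% (2.21) in ISWI libraries, against 0.637% (0.257) and -0.357% (1.23) in GST libraries. In both replicate 2 libraries the value lay within its counting error of 0.

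**Figure D4:**
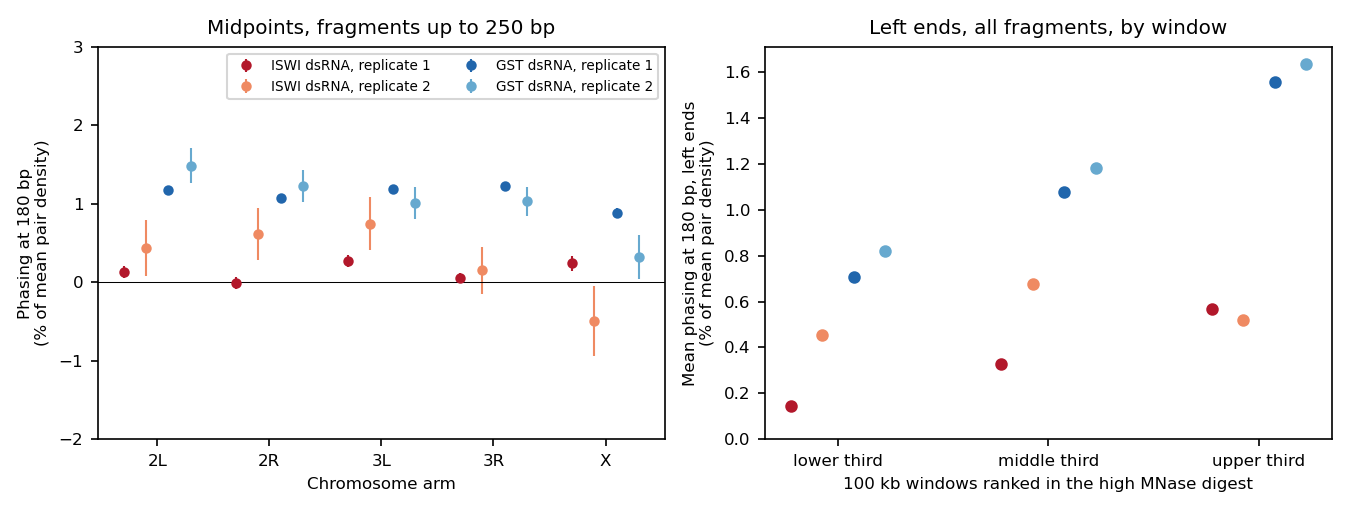
Left, phasing value of midpoints of fragments up to 250 bp by chromosome arm, with counting errors. Right, mean phasing value of left ends over 100 kb windows grouped by their phasing in the high MNase digest. ISWI libraries (red) stand left of GST libraries (blue), and are lower in each arm and each group of windows.

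Local phasing was examined in 1199 windows of 100 kb with left ends of all fragments. Windows were ordered by the phasing value of the high MNase digest, a library outside the comparison. In the lower group of 400 windows, mean phasing was 0.146% and 0.455% in ISWI libraries, against 0.706% and 0.822% in GST libraries. In the upper group of 400 windows it was 0.566% and 0.521% in ISWI libraries, against 1.56% and 1.64% in GST libraries. Regions with strong and with weak arrays in untreated cells were both lower after ISWI dsRNA. The mean difference was -0.560 percentage points within replicate 1 and -0.367 within replicate 2 in the lower group, and -0.992 and -1.11 in the upper group.

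Single windows were noisier than the arms. Within replicate 1, phasing was lower after ISWI dsRNA in 947 windows (79.0%), and within replicate 2 in 690 windows (57.5%). It was lower in both replicates in 566 windows and higher in both in 128. These counts hold over the degree 6 trend, where the difference of group means was below 0 in 791 windows, with a median of -0.746 percentage points. For amplitudes over the quadratic trend this difference was below 0 in 575 of 1199 windows, with a median of 0.0832 percentage points. That median ranged from -0.943 without ISWI replicate 2 to 1.01 without ISWI replicate 1. An amplitude has no sign and the cosine coefficient has one. The turn in direction therefore cannot be credited to the trend alone. The SD over windows was 0.960% and 3.07% in ISWI libraries and 0.956% and 2.28% in GST libraries, so replicate 2 gave little per window. On X the mean window difference was -0.563 percentage points within replicate 1 and 0.0476 within replicate 2, whereas on 3R it was -0.971 and -1.04.

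Over a quadratic trend, limma called 0 of 1199 windows (0%) after Benjamini-Hochberg adjustment at 0.05, and 3 had an unadjusted p below 0.05. Over the degree 6 trend, with group as the only term, limma called 6 windows (0.5%), of which 2 (0.167%) were higher and 4 (0.334%) lower after ISWI dsRNA. These calls turned on single libraries: limma called 136 windows without ISWI replicate 1, and 0 without ISWI replicate 2 or without GST replicate 2. Coordinates are in release 5 (dm3), counted from 1. The largest rise was at 3L:18200001-18300000, where phasing was 0.443% and 9.90% in ISWI libraries, against -0.185% and -6.41% in GST libraries. The limma difference there was 8.47 percentage points (SE 1.49, adjusted p 1.65e-05). It rested on the shallow replicates, since the difference of the deep ones was small. limma pools the spread between libraries over windows and here weighted deep and shallow libraries alike. This SE and p therefore do not measure the spread between libraries in this window alone.

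The other higher window was X:14500001-14600000, with 1.73% and 6.88% in ISWI libraries, against 0.0757% and -5.25% in GST libraries. Among the lower windows, 3L:16000001-16100000 gave 0.354% and -5.04% in ISWI libraries, against 4.10% and 4.96% in GST libraries. Its limma difference was -6.87 percentage points (SE 1.53, adjusted p 0.0029), and both replicates showed it. The same limit holds for this SE and p. X:11100001-11200000 gave -1.73% and -5.87% in ISWI libraries, against 1.94% and 3.51% in GST libraries, again in both replicates. In X:18200001-18300000 and 3L:19900001-20000000 the fall was carried mainly by replicate 2. No annotation of this genome build was used, so genes in these windows are not named.

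Coverage was tested with group as the only term. In 10 kb windows scaled to library size, limma called 0 of 12027 windows (0%) for all fragments after Benjamini-Hochberg adjustment at 0.05, and 436 had an unadjusted p below 0.05. With voom weights it also called 0. Without ISWI replicate 1 limma called 141 windows for all fragments, and without GST replicate 2 it called 13. By class, it called 0 of 12010 windows (0%) in the shortest class, 0 of 11996 (0%) in the middle class and 0 of 12023 (0%) in the longest. At an unadjusted p under 0.05 these classes held 710, 341 and 136 windows, and voom called 0 in each. Without ISWI replicate 1 limma called 326 windows in the shortest class, 500 in the middle class and 0 in the longest. Without GST replicate 2 it called 2, 2 and 0, and without GST replicate 1 it called 1 in the shortest class. The median size of the log2 difference over all fragments was 0.11, and 95% of windows lay within 0.33. No window differed by more than 1 on the log2 scale.

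Differences within the 2 replicate pairs were only weakly alike across windows. Their Pearson correlation over 12027 windows was 0.221 for all fragments, 0.101 in the shortest class, 0.0394 in the middle class and 0.115 in the longest. Windows of 1 genome are not independent, so these are descriptions. The windows agreed in sign in 58.1% of cases for all fragments. Against the difference between the high and the low MNase digest, the ISWI difference correlated at 0.0194 for all fragments. For replicates 2 the median window held 86 fragments, and counting error limits what a window can show.

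Differences in coverage of whole arms were small. The log2 density of X against the autosomal arms was -0.57 and -0.51 in ISWI libraries, against -0.61 and -0.56 in GST libraries. The means were -0.54 ± 0.043 in ISWI libraries and -0.58 ± 0.037 in GST libraries (SD, n = 2 each). The difference of 0.04 was close to the spread between replicates and had the same sign in both pairs, 0.036 within replicate 1 and 0.044 within replicate 2. In fragments up to 250 bp the groups did not overlap, with -0.549 and -0.551 in ISWI libraries, against -0.614 and -0.581 in GST libraries. In the untreated titration the value was -0.82, -0.87 and -0.81 from low to high digest. Chromosome 4 gave -0.59 and -0.71 in ISWI libraries, against -0.58 and -0.61 in GST libraries. In fragments of 500 to 1000 bp chromosome 4 gave -0.721 and -0.734 in ISWI libraries, against -0.671 and -0.689 in GST libraries, without overlap. The titration libraries gave 0.43, 0.18 and 0.27 on chromosome 4, which is higher than in either dsRNA group.

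Fragment lengths on the arms separated the groups at the dinucleosomal and the tetranucleosomal step. The mononucleosomal mode was 166 and 163 bp in ISWI libraries, against 169 and 165 bp in GST libraries. These ranges overlapped, though the mode was 3 and 2 bp shorter within replicates. The dinucleosomal mode was 310 and 318 bp in ISWI libraries, against 341 and 347 bp in GST libraries. Its difference was -30 bp, with -31 bp within replicate 1 and -29 bp within replicate 2, beyond the replicate spread. The tetranucleosomal mode differed by -33.5 bp, so the shift was about as large for a pair of nucleosomes as for the cut band.

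The dinucleosomal maximum itself was shallow after ISWI dsRNA when set against the trough before it. Its height over that trough was 1.04 and 1.06 times in ISWI libraries, against 1.16 and 1.64 times in GST libraries. Over the trough after it the groups overlapped, with 1.34 and 1.79 times in ISWI libraries, against 1.59 and 2.18 times in GST libraries. On 3L the mode of ISWI replicate 2 fell on the lower limit of its search. The median length over 250 to 450 bp was 341 and 334 bp in ISWI libraries, against 341 and 344 bp in GST libraries, and in replicate 1 it did not differ. A trinucleosomal mode, at 512 bp, was found inside its search range in GST replicate 2 and lay on the limit in the other 3 libraries. In the titration no dinucleosomal mode was found above the search limit.

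**Figure D5:**
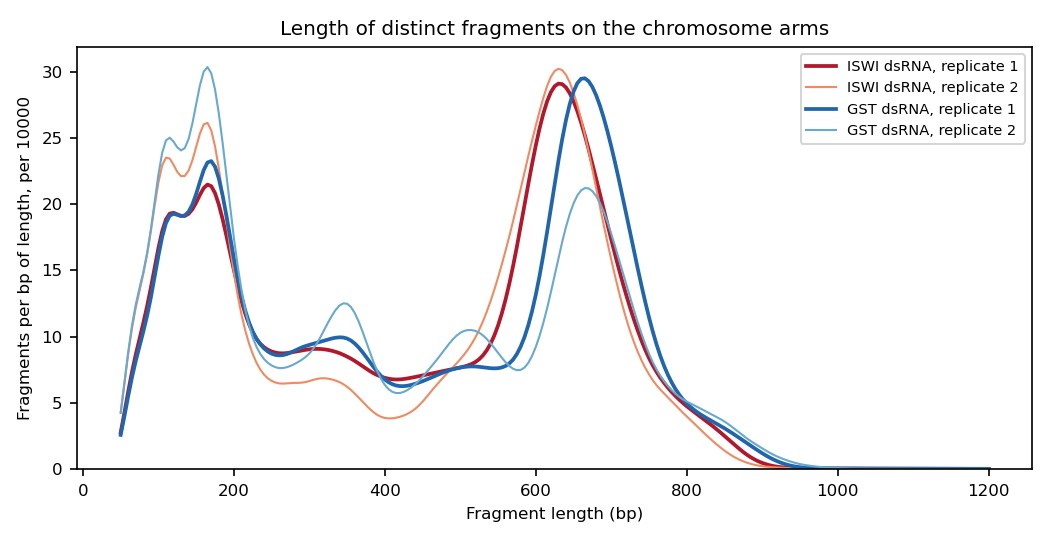
Length of distinct fragments on the arms in bp, as fragments per bp of length per 10000, smoothed with a Gaussian of SD 10 bp; each line is 1 library. The dinucleosomal maximum is shallow over the trough before it and stands at 310 and 318 bp in ISWI libraries (red). In GST libraries (blue) it stands at 341 and 347 bp.

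The median length of fragments up to 250 bp was 152 and 146 bp in ISWI libraries, against 155 and 149 bp in GST libraries. The difference of 3 bp within each replicate was no larger than the one between replicates, 6 bp in each group. The titration libraries had medians of 177, 181 and 181 bp at low, medium and high MNase. The part of digestion in the difference in phasing was not tested, and enzyme amounts for these libraries were not used here.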

How the data were processed

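The authors aligned the reads and deposited 1 genome interval per fragment; the submitters' processing notes name Bowtie 1.1.1, bedtools and the build dm3. The tables have no header and no counts, scores or signal: the values the authors deposited are positions in bp. The members and all measures were chosen with earlier results of these data known, and the degree 6 trend was chosen after the pair densities were seen, because the densities fell steeply with distance.

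Repeated intervals were counted once. Of 120384 bins of 1 kb, 6822 with over 5 times a library's median count were left out. Pair densities, fits and exact permutation tests used numpy and scipy, and windows used limma 3.58.1 (lmFit, eBayes with trend, Benjamini-Hochberg 0.05) on log2 intervals scaled to library size, with at least 10 intervals on average per window. Local phasing needed 100 ends per library. Called windows whose ISWI values both lay outside the GST range were named, up to 5 rises and 5 falls. Scripts were tested on simulated data. The preset fits over a quadratic trend are reported beside the added ones. Nanopore tables were not used here.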

Additional observations from a re-analysis of the deposited data

How the results depend on the processing

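Values are ISWI minus GST. Phasing at 180 bp over the degree 6 trend kept its sign for midpoints up to 250 bp under all 13 alternatives, from -1.47 to -0.278 percentage points, and under leaving out a library, from -0.982 to -0.754. For left ends of 500 to 1000 bp fragments it kept its sign under 12 alternatives, from -1.18 to -0.0346, and without single libraries, from -1.31 to -1.02. The smallest values came with a period of 190 bp. A trend of degree 5 gave the values of degree 6, since the cosine is odd about the centre of the range. Right ends of 500 to 1000 bp fragments reversed to 0.0868 at 190 bp, and midpoints of these fragments to 0.925 at each library's best period. The cause was not tested.

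Over the quadratic trend, midpoints up to 250 bp stayed lower, without single libraries from -1.07 to -0.623. Left ends of 500 to 1000 bp fragments reversed to 0.340 at the best period and ranged from -1.40 to 0.231 without single libraries (0.231 without ISWI replicate 1, 0.106 without GST replicate 2). Right ends reversed to 0.665 at the best period, and to 0.564 and 0.336 without ISWI replicate 1 or GST replicate 2 (lowest, -1.44). Midpoints of these fragments had a main difference of 0.152, higher in ISWI libraries. It reversed to -0.192 over lags to 800 bp and to -0.202 at 190 bp. Without single libraries it ranged from -0.270, without ISWI replicate 2, to 0.573. Left ends over 250 to 450 bp reversed to 0.319 with no bins left out. The void repeat length difference of midpoints turned to -9.20 bp with thinned libraries and to -13.4 bp with SD 25 bp, and ranged from -7.55 to 31.8 bp without single libraries. That of left ends ranged from 1.90 to 45.3 bp. The dinucleosomal mode ranged from -34 to -26 bp without single libraries, and its median difference was -5 bp. The X difference ranged from 0.01 to 0.07.

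Labels do not say that a replicate number marks a shared preparation. Differences between replicates 1 and 2 correlated at 0.351 over 10 kb windows between groups. With the replicate block, limma called 20 windows of coverage for all fragments and 1, 0 and 2 in the short, middle and long classes, and 0 windows of local phasing over either trend, so the 6 windows over the degree 6 trend were all lost. Without ISWI replicate 1 the coverage counts were 141, 326, 500 and 0, and without GST replicate 2 they were 13, 2, 2 and 0. Without GST replicate 1 there was 1 window up to 250 bp. Ranges over single libraries left out were 0 to 141, 0 to 326, 0 to 500 and 0 to 0. A lone library was assumed to vary like the other group.

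Local phasing over the quadratic trend gave 0 to 7 windows without single libraries, 7 without ISWI replicate 1. Over the degree 6 trend, the 6 windows became 0 at 190 bp, 0 with right ends and 21 in 50 kb windows. They became 136 without ISWI replicate 1, and 0 without ISWI replicate 2 or without GST replicate 2. Depth limits single windows, since replicates 2 held few fragments in each.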
